A study of Mus musculus with 3 samples.

Results

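Single-exon transcripts that Cufflinks assembled outside every RefSeq gene locus numbered 1329 of 43463 listed transcripts in the library labelled shKSRP, 1949 of 45980 in the BMP2 library and 2244 of 45942 in the mock library. A transcript was taken when it carried an assembly name in place of a RefSeq one, had exactly 1 exon, reached an FPKM of 1 and a length of 200 nt, and shared its locus with no RefSeq transcript in that library. FPKM is the number of fragments scaled to transcript length and to the depth of the library, so it is a level per length. Because FPKM, length, exon number and locus chose these transcripts, those values are description and were not tested.

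All 3 libraries came from C2C12, a mouse mesenchymal line used as a model of myoblasts that BMP2, a bone morphogenetic protein, turns towards osteoblasts. The library labelled shKSRP came from shKSRP-transfected cells kept in growth medium, DMEM with 20% FBS. The BMP2 library came from mock-transfected cells labelled as in differentiation medium, which has 2% horse serum, with recombinant BMP2 at 100 to 300 ng/ml for a time the labels do not settle. The mock library held mock-transfected cells left in growth medium without BMP2, and no library combined shKSRP with BMP2. RNA was selected on oligo(dT) beads, so RNA without a poly(A) tail was depleted in every group. With 1 library in a group there is no replicate error to set a difference against, so p-values are absent throughout, and both comparisons with mock share that single library.

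An assembled stretch with 1 exon and no annotated gene can be of several kinds. It can be the far end of a long 3′ untranslated region, a piece of retained intron or pre-mRNA, the primary transcript of a microRNA, an intronless processed pseudogene, or reads from an expressed gene placed on such a copy. KSRP, encoded by Khsrp, is an RNA-binding protein that promotes decay of mRNAs with AU-rich elements and the maturation of some microRNA precursors, let-7a among them. MicroRNA hairpins are cut from long primary transcripts that annotation of spliced mRNAs often leaves out.

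Of 602 microRNA genes in the RefSeq models, 69 lay within 10 kb of one of these transcripts and 20 were overlapped by one in at least 1 library. Of the 20, 18 had a mature sequence in the RefSeq table of GRCm38.p6, as had 64 of the 69. The sequences below belong to hairpins that lay in or beside an assembled transcript whose values follow. They are written 5′ to 3′ with the seed, bases 2 to 8, in capitals, and 1 arm is shown for each.
mmu-miR-133b-3p: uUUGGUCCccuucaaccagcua
mmu-miR-206-3p: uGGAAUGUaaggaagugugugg
mmu-miR-23a-3p: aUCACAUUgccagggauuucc
mmu-miR-27a-3p: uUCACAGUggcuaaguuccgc
mmu-miR-24-3p: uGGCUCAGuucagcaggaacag
mmu-miR-221-3p: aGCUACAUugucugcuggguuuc
mmu-miR-222-3p: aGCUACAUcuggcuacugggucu
mmu-miR-155-5p: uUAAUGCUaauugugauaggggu
mmu-let-7i-5p: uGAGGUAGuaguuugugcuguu
mmu-let-7c-5p: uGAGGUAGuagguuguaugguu
mmu-miR-34a-5p: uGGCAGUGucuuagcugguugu
mmu-miR-296-5p: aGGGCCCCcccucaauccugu
mmu-miR-140-3p: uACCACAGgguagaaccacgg
The seeds of miR-221 and miR-222 are the same, as are those of let-7i and let-7c. The microRNAs described next, beyond those that the naming rule gave, were picked after their values were seen.

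The transcript over Mir133b, a hairpin of skeletal muscle that pairs with Mir206, shows how the label of a place can change between libraries. In the library labelled shKSRP, assembled transcripts over Mir133b summed to 6.66 FPKM and all shared a locus with RefSeq. In the BMP2 library a single-exon transcript of 1470 nt without RefSeq gene (chr1:20672868-20674337, mm9) covered all but the start of the hairpin (chr1:20672850-20672968). It had 3.54 ± 0.41 FPKM, where ± runs to the upper bound of the deposited 95% interval. In the mock library the transcripts over the hairpin summed to 3.24 FPKM at a RefSeq locus. The sums cover transcripts of different span, so they stand side by side and no order is read from them. Mir206 itself lay in a mock transcript of 1101 nt at 1.34 ± 0.30 FPKM, at a RefSeq locus. It was also 633 nt from a single-exon transcript of the mock library without RefSeq gene, at 1.11 FPKM.

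Mir221, which shares its cluster with Mir222, lay in a single-exon transcript of 1498 nt in the library labelled shKSRP (chrX:18722491-18723988) at 1.85 ± 0.28 FPKM. In the BMP2 library the overlapping transcript had 3.84 ± 0.51 FPKM and in the mock library 9.56 ± 0.69 FPKM, both at a RefSeq locus, so those are not among the transcripts that met the rule. The intervals of the 3 libraries do not overlap, with the library labelled shKSRP the lowest and mock the highest. The cluster of Mir23a, Mir27a and Mir24-2 had no assembled transcript in the library labelled shKSRP. It summed to 17.0 FPKM in the BMP2 library at a RefSeq locus, and in the mock library it lay in a single-exon transcript of 3210 nt without RefSeq gene at 8.16 ± 0.40 FPKM (chr8:86730622-86733831).

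Mirlet7i, a let-7 family member, lay in a single-exon transcript in both the library labelled shKSRP and the BMP2 library. Its level was 0.937 ± 0.165 FPKM in the library labelled shKSRP, under the minimum of 1, and 1.60 ± 0.24 FPKM in the BMP2 library (chr10:122420934-122422865), with no assembled transcript in mock. Mir155, the hairpin of the Bic transcript, had none in the library labelled shKSRP, 1.63 ± 0.25 FPKM in the BMP2 library and 1.1 ± 0.17 FPKM in the mock library. The BMP2 and mock intervals for Mir155 overlap. Near the rule's minimum, presence in a library is a matter of a small part of 1 FPKM, so none of these absences shows that the primary transcript was missing.

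The Mir143 and Mir145a pair, known from smooth muscle, lay together in a transcript of 4665 nt at 5.54 ± 0.26 FPKM in the library labelled shKSRP and of 3648 nt at 6.69 ± 0.35 FPKM in the BMP2 library. In the mock library a shorter one of 1981 nt at 3.11 ± 0.33 FPKM reached Mir145a, which with a spliced transcript over it sums to 5.10 FPKM, and no assembled transcript covered Mir143. Mir296 lay in single-exon transcripts at 5.50 ± 0.73 FPKM in the library labelled shKSRP and 6.44 ± 0.87 FPKM in the BMP2 library, whose intervals overlap, and in none of mock. Mir140, a cartilage microRNA in Wwp2, lay in a mock transcript of 9597 nt at 4.67 ± 0.19 FPKM that ran across 9 Wwp2 introns. The BMP2 library had one of 6384 nt at 8.23 ± 0.32 FPKM over the same gene, 2482 nt from the hairpin. Beside Mir34a, a p53 target, the library labelled shKSRP had a transcript of 2100 nt at 2.45 ± 0.27 FPKM that began 1119 nt from the hairpin, and the BMP2 library one of 3213 nt at 2.93 ± 0.25 FPKM that began 6 nt from it. In mock the same span held a pair of transcripts, 1035 nt at 1.16 ± 0.29 FPKM nearest to the hairpin and 2078 nt at 4.52 ± 0.38 FPKM beyond it. The farther one overlaps that of the library labelled shKSRP and was higher than it. Only in the library labelled shKSRP did assembled transcripts reach the Mir34a hairpin itself, and they touched only its last bases. They were a pair of spliced ones at a RefSeq locus, at 1.21 ± 0.51 FPKM and 1.31 ± 0.53 FPKM. Both began at chr4:149442656, where the hairpin ends at 149442664 and the BMP2 transcript began at 149442670. With edges so close, no difference between libraries is read from that overlap. The transcripts beside Mir99a and Mirlet7c-1 had 1.73 ± 0.36 FPKM in the library labelled shKSRP and 3.22 ± 0.56 FPKM in the BMP2 library, and the place was held by a spliced transcript in mock.

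Among the 20 overlapped hairpins, no assembled transcript covered 9 in the library labelled shKSRP, 2 in the BMP2 library and 6 in the mock library. The 20 were chosen by such overlaps, 6 in the library labelled shKSRP, 11 in the BMP2 library and 9 in mock. A library with fewer overlaps has more room for gaps, so no order is read from these counts. Over all transcripts missing from a library, 41.6% to 51.4% of places had nothing listed. Oligo(dT) selection and transcript length set how much of a primary transcript is seen, and the mature microRNAs were not measured. The values at these hairpins are thus levels of the longer RNA alone. The rule for naming by FPKM within 10 kb gave transcripts that are mostly exons or introns of protein-coding genes. The highest by FPKM summed over libraries lay in AI506816 near Mir3096, at 33.9 FPKM in the BMP2 library and 35.4 FPKM in mock. Mir196b was about a kilobase from the Hoxa10 transcript described below, and Mir155 was also 5454 nt or more from an Mrpl39 intronic transcript of 9.10 FPKM in the library labelled shKSRP and 12.1 FPKM in the BMP2 library.

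Khsrp, the gene that the hairpin RNA is meant to lower, had 28.4 ± 0.64 FPKM in the library labelled shKSRP, 27.1 ± 0.67 FPKM in the BMP2 library and 31.4 ± 0.85 FPKM in mock. The library labelled shKSRP was thus at 90.6% of mock and the BMP2 library, which received no such hairpin, at 86.5%, so the mRNA does not by itself set the labelled library apart. Myoblast markers were present in all 3 libraries, with Myod1 at 34.8 (labelled shKSRP), 17.3 (BMP2) and 30.7 FPKM (mock) and Des at 184.6 (labelled shKSRP), 218 (BMP2) and 279.8 FPKM (mock). Cdh15 had 31.1 (labelled shKSRP), 5.02 (BMP2) and 38.3 FPKM (mock) and Myf5 had 48.4 (labelled shKSRP), 9.09 (BMP2) and 7.75 FPKM (mock). Of the markers of other cell types, Epcam, Cd3e and Rbfox3 were listed at 0 throughout and Cd14 had 4.61 (labelled shKSRP), 10.5 (BMP2) and 11.9 FPKM (mock), while none of the others passed 0.317 FPKM. In such bulk RNA, fewer cells that hold a transcript and less of it per cell cannot be told apart. Read back from the widths of the deposited intervals, the depth was 68.5 M fragments for the library labelled shKSRP, 60.4 M for BMP2 and 62.1 M for mock. The protocol describes PCR and no molecular identifiers, so intervals cover counting and assignment error only.

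The files list 14761 transcripts assembled from reads in the library labelled shKSRP, 17278 in the BMP2 library and 17240 in mock. Outside RefSeq loci there were 6700 (labelled shKSRP), 8624 (BMP2) and 9157 (mock) of them, and 5607 (labelled shKSRP), 7558 (BMP2) and 8101 (mock) of those had a single exon. Most single-exon ones fell under an FPKM of 1, 3952 in the library labelled shKSRP, 5276 in the BMP2 library and 5343 in mock. A further 326 (labelled shKSRP), 333 (BMP2) and 514 (mock) were shorter than 200 nt. What was left is 23.7% (labelled shKSRP), 25.8% (BMP2) and 27.7% (mock) of the single-exon transcripts outside RefSeq loci, and 1.31% (labelled shKSRP), 1.53% (BMP2) and 1.84% (mock) of the summed FPKM. Nearly all carried no strand, 1312 of 1329 in the library labelled shKSRP, 1915 of 1949 in the BMP2 library and 2203 of 2244 in mock, so sense and antisense RNA of a gene cannot be told apart here.

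The limits of the rule cut through a dense part of both distributions. The library labelled shKSRP had 84 transcripts between 1 and 1.1 FPKM and 120 between 0.9 and 1, the BMP2 library had 144 and 191, and mock had 184 and 218. At the length limit, 57 transcripts of 200 to 220 nt stood beside 69 of 180 to 199 nt in the library labelled shKSRP, 65 beside 79 in the BMP2 library and 75 beside 100 in mock. A place that a library lacks can therefore lie just outside the rule there.

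The transcripts were mostly short and low. Their median length was 540 nt in the library labelled shKSRP, 644 nt in the BMP2 library and 658 nt in mock, and 428 (labelled shKSRP), 739 (BMP2) and 848 (mock) of them reached 1 kb. Median FPKM was 2.47 in the library labelled shKSRP, 2.24 in the BMP2 library and 2.32 in mock. Levels of 100 FPKM or more were reached by 14 in the library labelled shKSRP, 14 in the BMP2 library and 24 in mock. The median number of fragments behind a transcript, read back from its interval, was 80.0 in the library labelled shKSRP, 80.2 in the BMP2 library and 81.0 in mock. Fewer than 10 came out for 5 (labelled shKSRP), 13 (BMP2) and 7 (mock) of them. An unusually wide interval makes this number too low. At Atl3 in the library labelled shKSRP, 19.1 FPKM over 5748 nt came out at 19.1 fragments, where the median above 5 kb was 1113. A given FPKM rests on fewer fragments in a short transcript, and by more than its length alone. At 200 to 250 nt the median was 18.9 fragments per FPKM and kilobase in the library labelled shKSRP, 17.6 in the BMP2 library and 17.5 in mock, while above 5 kb it was 64.3 (labelled shKSRP), 56.8 (BMP2) and 59.0 (mock). Levels of transcripts of very different lengths are therefore not on quite the same scale, so fragments are given below at several places where lengths differ between libraries.

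The longest of all was a 25221 nt stretch at Epb41l3, a cytoskeletal protein gene, at 1.28 FPKM in the BMP2 library, where mock had a 2735 nt piece at 7.01 FPKM. At Pvt1, a long noncoding RNA gene beside Myc, the library labelled shKSRP had a 17481 nt transcript at 2.99 ± 0.10 FPKM from 3271 fragments, which overlapped Pvt1 exons on the opposite strand. Within that span, beyond the 3′ end of the gene, the BMP2 library had 6269 nt at 1.57 ± 0.13 FPKM from 611 fragments and mock 2189 nt at 5.37 ± 0.40 FPKM from 713. The 3 assemblies thus cut the same stretch to different lengths, and a shorter piece at a higher FPKM is not more RNA from the whole stretch. Ahnak, a giant scaffold protein gene, had a 17569 nt transcript at 12.6 FPKM in the BMP2 library. The HoxC transcript of the library labelled shKSRP ran 16663 nt across Hoxc5, Hoxc6 and Mir615 at 1.03 FPKM, just above the minimum.

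Set against RefSeq models, 191 transcripts (14.4%) of the library labelled shKSRP overlapped an exon, as did 373 (19.1%) of the BMP2 library and 418 (18.6%) of mock. The 95% Wilson interval of that share was 12.6% to 16.4% in the library labelled shKSRP, 17.5% to 20.9% in the BMP2 library and 17.1% to 20.3% in mock. Introns without exon overlap held 28.7% (labelled shKSRP), 32.3% (BMP2) and 32.6% (mock). Intergenic ones made up 57.0% in the library labelled shKSRP (interval 54.3% to 59.6%), 48.6% in the BMP2 library (46.4% to 50.8%) and 48.8% in mock (46.7% to 50.9%). The library labelled shKSRP stands apart from the other libraries with a larger intergenic and a smaller exonic share, beyond counting error and with no replicate. Its number of intergenic transcripts was the lowest, 757 beside 947 (BMP2) and 1095 (mock). Exons take 2.36% of the bases covered by the models' chromosomes, introns 33.8% and intergenic sequence 63.8%.

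**Figure D1:**
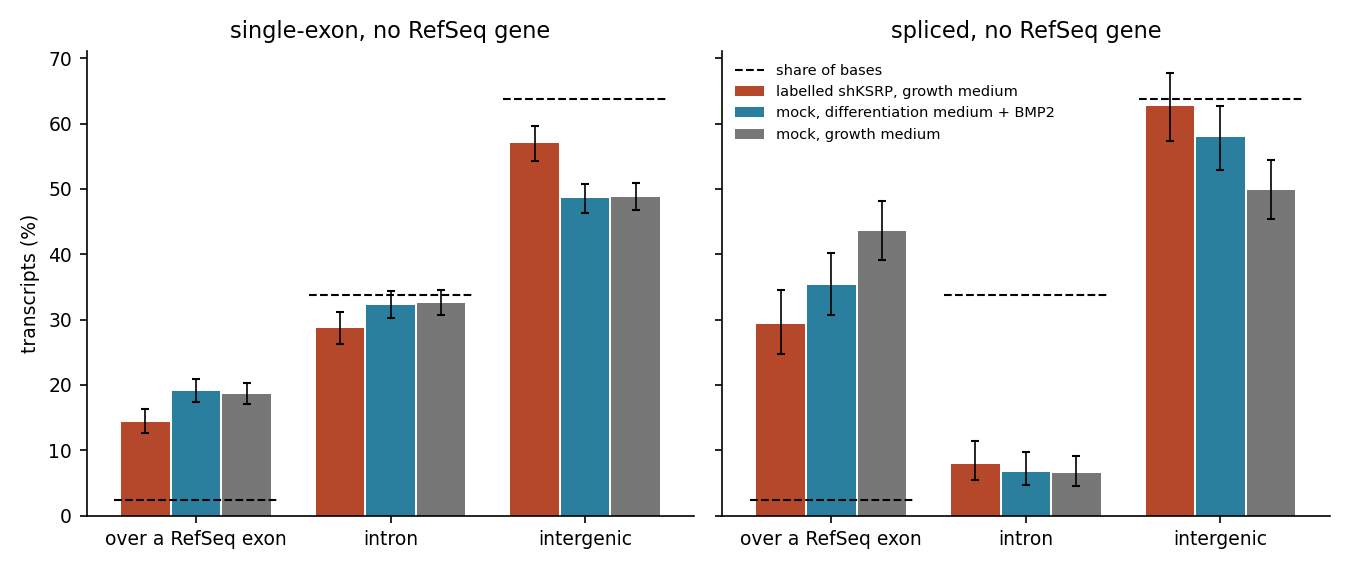
Share of transcripts (percent) that are single-exon (left) or spliced (right) without a RefSeq gene, over a RefSeq exon, within an intron or intergenic in the library labelled shKSRP, the BMP2 library and the mock library, with 95% Wilson intervals as error bars and the share of bases as dashed lines. Intergenic shares of single-exon transcripts were 57.0% (labelled shKSRP), 48.6% (BMP2) and 48.8% (mock).

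Spliced assembled transcripts without a RefSeq gene, chosen by the same minimums, were set beside them, 327 in the library labelled shKSRP, 385 in the BMP2 library and 463 in mock. Their exonic share was higher, 29.4% (labelled shKSRP), 35.3% (BMP2) and 43.6% (mock), and their intronic share lower, 7.95% (labelled shKSRP), 6.75% (BMP2) and 6.48% (mock). In each of the 3 libraries the intronic share of single-exon transcripts was thus several times that of spliced ones. Single-exon transcripts over exons were the longest class, with a median of 3743 nt in the library labelled shKSRP, 3170 nt in the BMP2 library and 2526.5 nt in mock, against 402 (labelled shKSRP), 403 (BMP2) and 431 nt (mock) for intronic ones.

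Many exon-overlapping transcripts extend an annotated gene. Past the 3′ end of the gene ran 74 of 191 (38.7%) in the library labelled shKSRP, 138 of 373 (37.0%) in the BMP2 library and 205 of 418 (49.0%) in mock. Whole introns were spanned by 48 transcripts of the library labelled shKSRP, 111 of the BMP2 library and 93 of mock. A long one lay over Plec, which encodes the cytolinker plectin, at 91.5 ± 0.75 FPKM over 11234 nt in the library labelled shKSRP and 108.5 ± 0.76 FPKM over 11800 nt in the BMP2 library. In the BMP2 library a transcript over Hnrnpk, an RNA-binding protein gene, and Mir7-1 ran 8944 nt across 12 introns at 16.7 ± 0.36 FPKM. Fkbp10, a collagen chaperone gene, carried a mock transcript of 843 nt at 239 FPKM. Others over matrix and secretory genes of the mock library were Mmp2 at 83.1 FPKM, Sec61a1 at 88.9 FPKM and Col6a3 at 69.4 FPKM. Other genes had transcripts of similar level there, such as Mbnl1 at 78.0 FPKM and Fam120a at 66.5 FPKM, so no class of genes is read from these.

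Nid1, which encodes the basement membrane protein nidogen, carried one over its exons in all 3 libraries. It had 14.2 ± 0.67 FPKM in the library labelled shKSRP over 3028 nt, 22.1 ± 0.77 FPKM in the BMP2 library over 3942 nt and 101.5 ± 1.45 FPKM in mock over 4614 nt (chr13:13600849-13605462 in mock). The gene itself had 23.0 FPKM in the library labelled shKSRP, 35.4 FPKM in the BMP2 library and 104.9 FPKM in mock, so gene and exonic stretch were in the same order. Vamp5, a vesicle SNARE known from muscle, did not keep that order. Its transcript of 477 to 489 nt had 15.9 ± 2.12 FPKM in the library labelled shKSRP, 71.8 ± 4.0 FPKM in the BMP2 library and 54.3 ± 3.79 FPKM in mock, while the gene had 48.6 (labelled shKSRP), 18.1 (BMP2) and 105.8 FPKM (mock). At Vamp5 the fragments of gene and single-exon transcript come from overlapping sequence, and how they were divided between the pair was not tested.

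Over an exon of Hoxa10, a homeobox gene, the transcript of 1621 to 1768 nt had 3.72 ± 0.47 FPKM in the library labelled shKSRP, 35.4 ± 1.35 FPKM in the BMP2 library and 28.7 ± 1.09 FPKM in mock. The library labelled shKSRP was far below the other two there, at nearly the same length. The sum for the gene was 16.5 FPKM in the library labelled shKSRP, 10.5 FPKM in the BMP2 library and 0 in mock. That sum leaves out assembled transcripts of a locus that joins several genes, so its 0 does not show a silent gene. No order of the gene is read from it, and the division of overlapping fragments between gene and transcript was not tested there either. At Car13, a carbonic anhydrase gene, the BMP2 library had a 6233 nt transcript at 27.4 ± 0.57 FPKM over an exon, and mock a 573 nt one 935 nt beyond the 3′ end at 1.70 ± 0.51 FPKM from 45 fragments. The library labelled shKSRP had that place inside a RefSeq locus, and the gene had 154.3 FPKM there, 105.9 FPKM in the BMP2 library and 65.7 FPKM in mock.

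Intergenic transcripts crowded beyond the 3′ ends of genes. Within 5 kb beyond the 3′ end of the nearest gene lay 172 of the intergenic ones (22.7%) in the library labelled shKSRP, 270 (28.5%) in the BMP2 library and 336 (30.7%) in mock. Within 5 kb before a 5′ end lay 108 (14.3%) (labelled shKSRP), 123 (13.0%) (BMP2) and 144 (13.2%) (mock). Per megabase of intergenic sequence within 1 kb beyond a 3′ end there were 4.05 in the library labelled shKSRP, 6.0 in the BMP2 library and 7.08 in mock, against 2.70 (labelled shKSRP), 2.48 (BMP2) and 2.81 (mock) within 1 kb before a 5′ end. Farther than 20 kb from any gene the density was 0.238 (labelled shKSRP), 0.271 (BMP2) and 0.281 (mock) per megabase. Both sides of genes were thus denser than distant sequence, the 3′ side the more so. Those beyond a 3′ end had a median length of 713.5 nt in the library labelled shKSRP, 904 nt in the BMP2 library and 1021.5 nt in mock, against 592.5 (labelled shKSRP), 585 (BMP2) and 517 nt (mock) before a 5′ end.

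**Figure D2:**
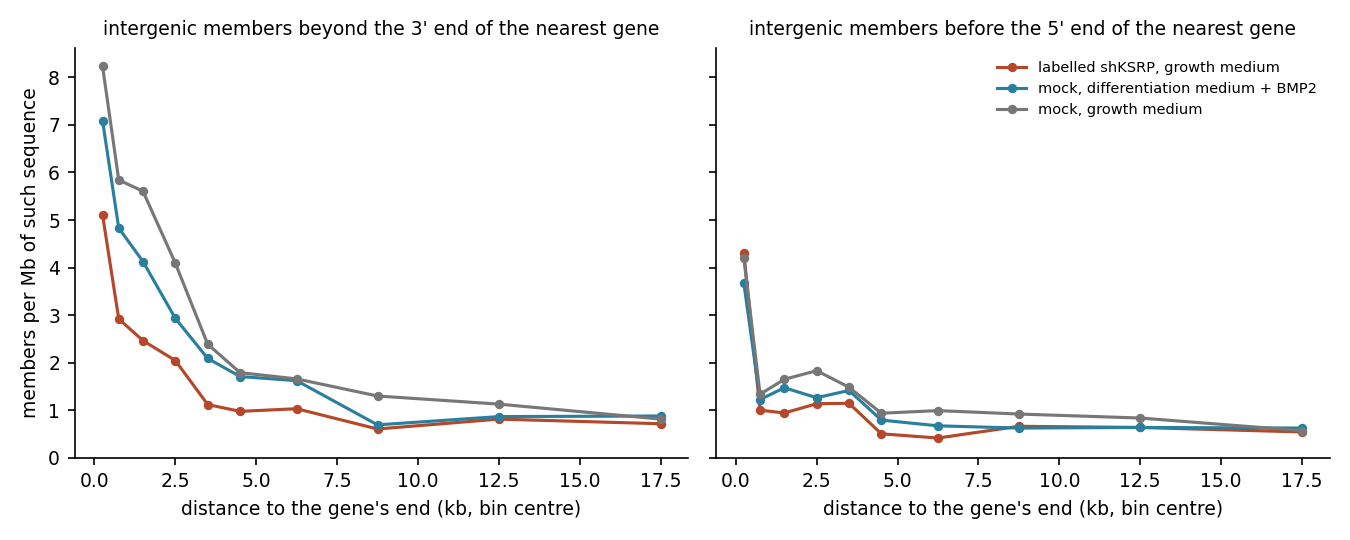
Density of intergenic single-exon transcripts (number per megabase of intergenic sequence) against distance to the nearest RefSeq gene, beyond its 3′ end and before its 5′ end, for the 3 libraries. Within 1 kb beyond a 3′ end the density was 4.05 in the library labelled shKSRP, 6.0 in the BMP2 library and 7.08 in mock.

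Grem1, which encodes the secreted BMP antagonist gremlin, had one of the highest of these in 3′ flanks. A transcript 396 nt beyond its 3′ end had 45.3 ± 1.14 FPKM over 2106 nt in the library labelled shKSRP and 122.7 ± 1.96 FPKM over 2120 nt in mock (chr2:113586317-113588436). In the BMP2 library the same sequence was joined to the Grem1 locus in a 2-exon transcript of 4022 nt at 32.1 ± 0.78 FPKM. The gene had 31.6 FPKM in the library labelled shKSRP, 38.6 FPKM in the BMP2 library, where the joined transcript is part of the sum, and 30.5 FPKM in mock. Between the library labelled shKSRP and mock the gene thus differed much less than the flanking transcript. In the BMP2 library the joined transcript holds the flank, so gene and flank cannot be compared there.

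Lgr6, an R-spondin receptor gene, had a transcript at its 3′ end in all 3 libraries. It had 1.14 ± 0.15 FPKM from 225 fragments in the library labelled shKSRP, where it lay 334 nt beyond the 3′ end, 34.4 ± 0.57 FPKM from 14551 fragments in the BMP2 library and 27.8 ± 0.57 FPKM from 9378 fragments in mock (chr1:136879736-136885245). It spanned 2904 nt in the library labelled shKSRP, and 7242 nt in BMP2 and 5510 nt in mock, where it also overlapped an exon. The gene had 1.37 FPKM in the library labelled shKSRP, 24.8 FPKM in the BMP2 library and 7.64 FPKM in mock, so gene and transcript were both lowest in the library labelled shKSRP. Col1a1, which encodes a chain of type I collagen of bone matrix, had one of 329 to 350 nt 839 nt beyond its 3′ end. It had 7.79 ± 1.58 FPKM in the library labelled shKSRP, 29.9 ± 3.21 FPKM in the BMP2 library and 5.72 ± 1.48 FPKM in mock, beside 15.7 (labelled shKSRP), 31.9 (BMP2) and 2.88 FPKM (mock) for the gene. The BMP2 library was the highest for both, and the intervals of the flank in the other two libraries overlap.

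Zim1, an imprinted zinc finger gene, had a transcript 1146 nt beyond its 3′ end at 8.24 ± 0.41 FPKM in the library labelled shKSRP and 1.27 ± 0.17 FPKM in the BMP2 library. Mock had a single-exon stretch there at 0.68 ± 0.13 FPKM, under the minimum. The gene had 3.85 FPKM in the library labelled shKSRP, 0.39 FPKM in the BMP2 library and 0.19 FPKM in mock, the same order. Beyond the 3′ end of Prrg4, a gene for a transmembrane Gla protein, mock was the highest and the library labelled shKSRP the lowest. The transcript 2725 nt or more away had 0.88 ± 0.38 FPKM in the library labelled shKSRP, under the minimum, 3.16 ± 0.50 FPKM in the BMP2 library and 32.0 ± 1.54 FPKM in mock. The gene had 0.11 FPKM in the library labelled shKSRP, 0.46 FPKM in the BMP2 library and 2.45 FPKM in mock, in the same order as its flank.

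**Figure D3:**
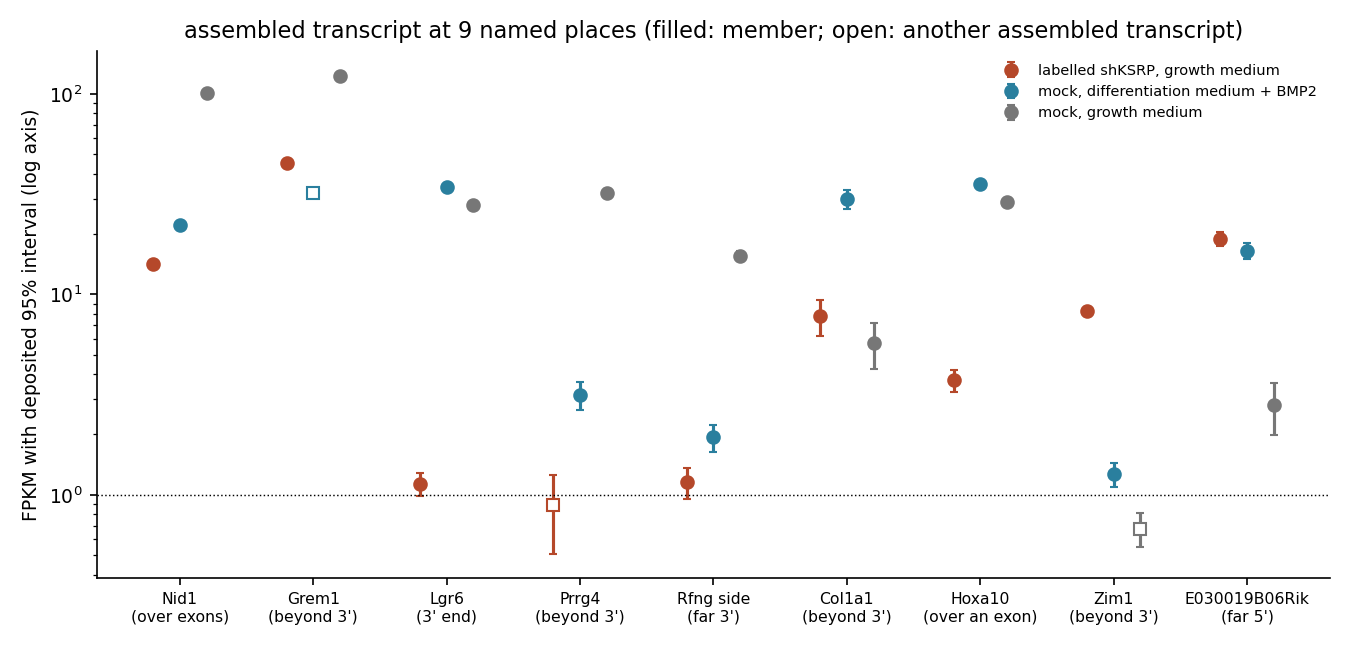
FPKM on a log axis, with the deposited 95% interval, of the assembled transcript at 9 named places in the library labelled shKSRP, the BMP2 library and the mock library. Filled points are single-exon transcripts that met the rule, open squares are other assembled transcripts, and the dotted line is the minimum of 1 FPKM. At Lgr6 the library labelled shKSRP was at 1.14, the BMP2 library at 34.4 and mock at 27.8.

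Across all such places, most genes with a nearby transcript were themselves expressed. The nearest gene of transcripts within 5 kb beyond a 3′ end had an FPKM of 1 or more for 77.3% of these genes in the library labelled shKSRP, 77.6% in the BMP2 library and 73.1% in mock. Of all 22709 RefSeq genes, 46.2% (labelled shKSRP), 47.1% (BMP2) and 46.3% (mock) reached it. Hosts of intronic transcripts did so in 75.5% (labelled shKSRP), 80.7% (BMP2) and 77.8% (mock). Where the gene was above 0, the flanking transcript had a median of 31.2% of its gene's FPKM beyond a 3′ end in the library labelled shKSRP, 29.6% in the BMP2 library and 29.9% in mock, and 15.2% (labelled shKSRP), 12.8% (BMP2) and 12.2% (mock) before a 5′ end. Levels of 3′ flank and gene did not rise together, with Spearman correlations of -0.06 (labelled shKSRP), -0.07 (BMP2) and -0.14 (mock). The flank was above its gene in 34.3% (labelled shKSRP), 36.7% (BMP2) and 39.6% (mock) of cases. A few places far from genes were as high as expressed mRNAs, so the flank of a gene is not the only setting.

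Differences of 3′ flanks followed those of their gene loosely. The log2 ratios of flank and gene had a Spearman correlation of 0.36 over 68 places for the library labelled shKSRP against mock, 0.31 over 99 for BMP2 against mock and 0.43 over 72 for the library labelled shKSRP against BMP2. They had the same sign in 57.4% of places in the first of these comparisons, 58.6% in that of BMP2 with mock and 56.9% in the last. Both members of a place share the same pair of libraries, and the 3 comparisons share libraries with each other, so these are descriptions. For transcripts over an exon, where gene and transcript draw on overlapping sequence, the sign was the same in 34.2% of places for the library labelled shKSRP against mock, 55.8% for BMP2 against mock and 40.4% for the library labelled shKSRP against BMP2.

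Few genes of the lists drawn up for this tissue had such a transcript in an exon, intron or 5 kb flank. In mock the myogenic and matrix lists, each of few genes, nevertheless had a larger share than all genes. Over all RefSeq genes, 3.24% had one in the library labelled shKSRP, 5.36% in the BMP2 library and 6.16% in mock. Of genes at 1 FPKM or more it was 5.57% (labelled shKSRP), 9.12% (BMP2) and 10.4% (mock). Among 17 myogenic genes it was 1 (labelled shKSRP), 1 (BMP2) and 4 (mock). Six4, a myogenic homeobox gene, had 1.05 FPKM in the library labelled shKSRP, 4.87 FPKM in the BMP2 library and 3.71 FPKM in mock, while Mef2a at 8.76 FPKM and the acetylcholine receptor gene Chrnb1 at 2.58 FPKM were among those with one in mock. Among 22 osteoblast and BMP genes it was 1 (labelled shKSRP), 2 (BMP2) and 2 (mock). Col1a1 was the one shared, Runx2, the osteoblast transcription factor, had a 5238 nt transcript at 5.78 FPKM in the BMP2 library, and Smad7, an inhibitory SMAD, had one at 16.2 FPKM in mock.

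Among 20 extracellular matrix genes, none had one in the library labelled shKSRP or the BMP2 library and 4 had one in mock. These were the basement membrane collagens Col4a1 at 70.5 FPKM and Col4a2 at 63.6 FPKM, Col6a1 at 20.8 FPKM and the fibrillin gene Fbn1 at 42.9 FPKM. Of 17 genes with AU-rich mRNAs, the class that KSRP is known to bind, Cxcl5, a chemokine gene, had one at 10.7 FPKM in mock and none had one in the other libraries. Of 14 cell cycle genes, Mki67 had one in mock at 34.7 FPKM. None of the 15 matched genes of the long noncoding and imprinted list had one.

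Intronic transcripts were spread over many hosts, 287 sets of host genes in the library labelled shKSRP, 483 in the BMP2 library and 556 in mock. Several transcripts in 1 set of hosts were seen in 62 (labelled shKSRP), 107 (BMP2) and 118 (mock) of them. The genes Gm14405 and Gm2026 together held 6 in the library labelled shKSRP, 5 in the BMP2 library and 6 in mock. Prune2 held 0 (labelled shKSRP), 7 (BMP2) and 8 (mock). One in a Wwp2 intron, an E3 ubiquitin ligase gene, had 62.3 ± 5.81 FPKM over 272 nt from 460 fragments in the library labelled shKSRP, 5.90 ± 1.26 FPKM over 442 nt from 87 in the BMP2 library and 18.7 ± 1.38 FPKM over 772 nt from 741 in mock. By FPKM the library labelled shKSRP was the highest there and by fragments mock was. The highest intronic ones were short and far above their hosts.

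In an intron of Il31ra, a cytokine receptor gene with at most 0.004 FPKM, a transcript of 200 nt had 620.1 ± 29.4 FPKM in the library labelled shKSRP and 882 ± 36.2 FPKM in mock (chr13:113368366-113368565). The BMP2 library had 642 ± 31.7 FPKM at 197 nt there, so the length minimum left it out. Within Cmss1 and Filip1l a transcript of 572 to 574 nt had 338 ± 6.82 FPKM in the library labelled shKSRP, 330.4 ± 7.15 FPKM in the BMP2 library and 543 ± 9.06 FPKM in mock. The gephyrin gene Gphn had 235 FPKM in the library labelled shKSRP, 212 FPKM in the BMP2 library and 308 FPKM in mock in one of its introns. In each of these introns mock was the highest and the library labelled shKSRP and the BMP2 library were close.

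The highest level of all was on chromosome 3 (chr3:5860335-5860778), 284097 nt from the nearest gene, in a transcript of 444 nt. It had 984 ± 14.2 FPKM in the library labelled shKSRP, 889 ± 14.2 FPKM in the BMP2 library and 1339 ± 17.3 FPKM in mock. U2af1, a splicing factor gene, had a transcript of 910 to 912 nt 2290 nt beyond its 3′ end (chr17:31780827-31781737) at 325 ± 4.92 FPKM in the library labelled shKSRP, 301.4 ± 5.04 FPKM in the BMP2 library and 546 ± 6.69 FPKM in mock. This stretch was higher than U2af1 itself, which had 84.9 FPKM in the library labelled shKSRP, 100.8 FPKM in the BMP2 library and 176.6 FPKM in mock.

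The RefSeq table of a later build, GRCm38.p6, lists genes that the mm9 models lack, and it was used for which genes neighbour each other and never for positions. Between Cbs and U2af1 it lists Rps2-ps8, a 951 nt pseudogene of a ribosomal protein mRNA, close in length to the transcript there. Within Filip1l it lists the pseudogene Gm20956 of 550 nt, beside the 572 to 574 nt of the transcript. None is listed within Il31ra, and the one within Gphn, Gm18899 of 1240 nt, is of another length. A match of neighbours and length does not show that the transcript is the pseudogene. Rps2, the expressed parent gene, had 1961 FPKM in the library labelled shKSRP, 1985 FPKM in the BMP2 library and 3957 FPKM in mock, an order in which mock is the highest, as at U2af1. The placing of reads with several matches is unknown from the sources used here, and the part of Rps2 reads in that value was not tested.

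Of 1053 intronic and intergenic transcripts in the library labelled shKSRP whose neighbours could be found in that table, 117 (11.1%) had a pseudogene within 10% of their length in the same intron host or gap. In the BMP2 library it was 118 of 1454 (8.12%) and in mock 152 of 1690 (8.99%). High transcripts had one more often. At 20 FPKM or more the share was 33.3% in the library labelled shKSRP, 25.7% in the BMP2 library and 29.9% in mock, against 7.21% (labelled shKSRP), 3.87% (BMP2) and 5.01% (mock) between 1 and 2 FPKM. The gaps and introns around high transcripts also held a pseudogene of any length more often, in 82.5% (labelled shKSRP), 80.0% (BMP2) and 78.4% (mock) of cases against 51.9% (labelled shKSRP), 44.4% (BMP2) and 43.4% (mock) of all, and how far the share of like length follows from the size of those gaps was not tested.

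High transcripts recurred in another library more often than low ones, an order that the rule itself favours. The overlapping transcript also had to reach 1 FPKM, so a low one is lost with a smaller drop. How much of the order is left beyond this was not tested. Of the transcripts of the library labelled shKSRP, 65.4% were overlapped by at least 1 base by such a transcript in either other library, against 57.6% for the BMP2 library and 48.0% for mock. In both other libraries they recurred in 42.3% (labelled shKSRP), 28.6% (BMP2) and 25% (mock) of cases. Of the list of the library labelled shKSRP, 55.5% recurred in BMP2 and 52.1% in mock. Of the BMP2 list, 37.6% recurred in the library labelled shKSRP and 48.6% in mock, and of the mock list 30.8% recurred in the library labelled shKSRP and 42.2% in BMP2. The lists differ in size, so a share of the shorter list comes out higher for the same overlap.

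At 20 FPKM or more, 92.2% recurred in the library labelled shKSRP, 80.4% in the BMP2 library and 65.4% in mock. Between 1 and 2 FPKM it was 54.2% (labelled shKSRP), 47.6% (BMP2) and 36.4% (mock). Intergenic transcripts recurred most, 75.4% in the library labelled shKSRP, 70.2% in the BMP2 library and 61.3% in mock, then intronic ones at 56.2% (labelled shKSRP), 49.8% (BMP2) and 38.7% (mock), and exonic ones least at 44.0% (labelled shKSRP), 38.9% (BMP2) and 29.2% (mock). That order by place held in each of the 3 libraries. The locus part of the rule enters it, since a transcript joined to a RefSeq locus elsewhere does not count as recurrence.

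Merged over libraries there were 3661 regions, of which 2450 (66.9%) had a transcript in 1 library, 664 (18.1%) in 2 and 547 (14.9%) in all 3. Of those in all 3, 396 were intergenic, 116 intronic and 35 exonic. Those in 1 library came from the library labelled shKSRP in 460 cases, from BMP2 in 824 and from mock in 1166. Over the 547, the median difference between a pair of libraries was 9 to 11 nt at the start and 10 to 11 nt at the end. Both edges of a region lay within 10 nt in 27.2% to 28.7% of them.

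**Figure D4:**
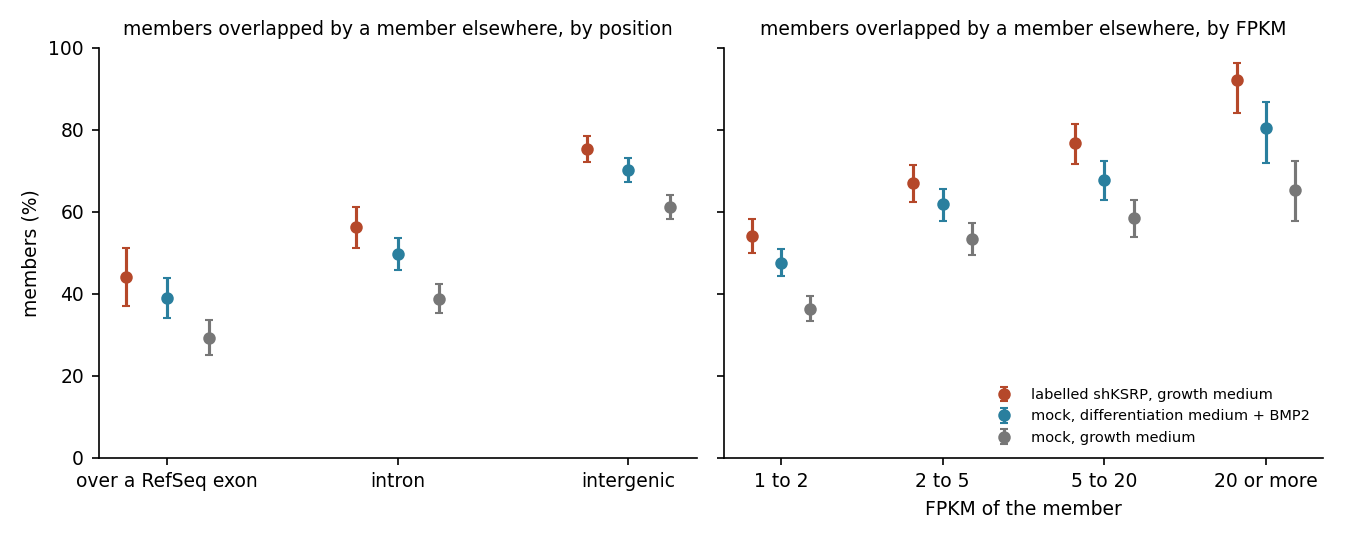
Share of single-exon transcripts (percent, with 95% Wilson intervals) overlapped by one of another library, by place (left) and by FPKM (right), for the library labelled shKSRP, the BMP2 library and the mock library. At 20 FPKM or more the shares were 92.2% (labelled shKSRP), 80.4% (BMP2) and 65.4% (mock), and between 1 and 2 FPKM 54.2% (labelled shKSRP), 47.6% (BMP2) and 36.4% (mock).

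A place missing from a library was often not empty there. Over the pairs of libraries, 41.6% to 51.4% of the missing places had nothing listed. A single-exon transcript under 1 FPKM stood at 14.4% to 23.7% of them, and an assembled transcript joined to a RefSeq locus at 16.4% to 24.0%. A RefSeq exon above 0 took 6.60% to 10.2%, a transcript under 200 nt 3.20% to 7.11% and a spliced one 2.80% to 3.62%. Grem1 in the BMP2 library is of the joined kind and Il31ra of the short kind. Near Steap1, 32192 nt before its 5′ end, the library labelled shKSRP had 31.2 ± 0.94 FPKM and the BMP2 library 4.39 ± 0.48 FPKM as single-exon transcripts, while mock had a spliced one at 45.6 ± 1.45 FPKM.

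For levels, transcripts of 2 libraries were paired where each was the other's best overlap, and a log2 ratio of FPKM + 1 of at least 1 in size was called, a rule of size with no test. Adding 1 makes the ratio smaller for low levels. Between the library labelled shKSRP and mock there were 674 pairs, of which 30 (4.45%) were higher in the library labelled shKSRP and 97 (14.4%) lower. Of the RefSeq genes with an FPKM of 1 or more in both, 8.78% were higher by the same rule and 10.6% lower, and 19.3% were called in either direction. The pairs had a median log2 ratio of -0.27 and the genes of -0.02. Exonic pairs had a median of -0.69 (1 higher and 18 lower of 51), intronic -0.31 (9 and 18 of 147) and intergenic -0.23 (20 and 61 of 476). All 3 places thus leaned to lower values in the library labelled shKSRP than in mock. The deposited intervals did not overlap for 380 of all pairs (56.4%). Among pairs at 10 FPKM or more the median was -0.39 over 120, and for BMP2 against mock it was -0.41 over 131. Between the library labelled shKSRP and BMP2 it was 0.04 over 112, so at high levels both comparisons with mock leaned alike. The summed FPKM of all listed transcripts was 901775 (labelled shKSRP), 932343 (BMP2) and 1170663 (mock).

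Between BMP2 and mock there were 926 pairs, 39 (4.21%) higher in BMP2 and 66 (7.13%) lower, against 7.24% and 7.58% of genes, with 14.8% of genes called in either direction. The median log2 ratio was -0.06 over pairs and 0.02 over genes. The share lower in BMP2 was near that of all genes. Beyond the 3′ end of Asxl2, a Polycomb-associated gene, at 14733 nt or more, the transcript had 8.52 ± 1.12 FPKM over 547 nt from 230 fragments in the library labelled shKSRP, 51.6 ± 5.53 FPKM over 272 nt from 348 in BMP2 and 39.6 ± 2.52 FPKM over 550 nt from 990 in mock. BMP2 was thus above mock in FPKM and below it in fragments. Directly between the library labelled shKSRP and BMP2 there were 716 pairs, 33 (4.61%) higher in the library labelled shKSRP and 60 (8.38%) lower, against 4.45% and 5.69% of genes, with 10.1% in either direction. Here the medians were -0.06 over pairs and -0.01 over genes.

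**Figure D5:**
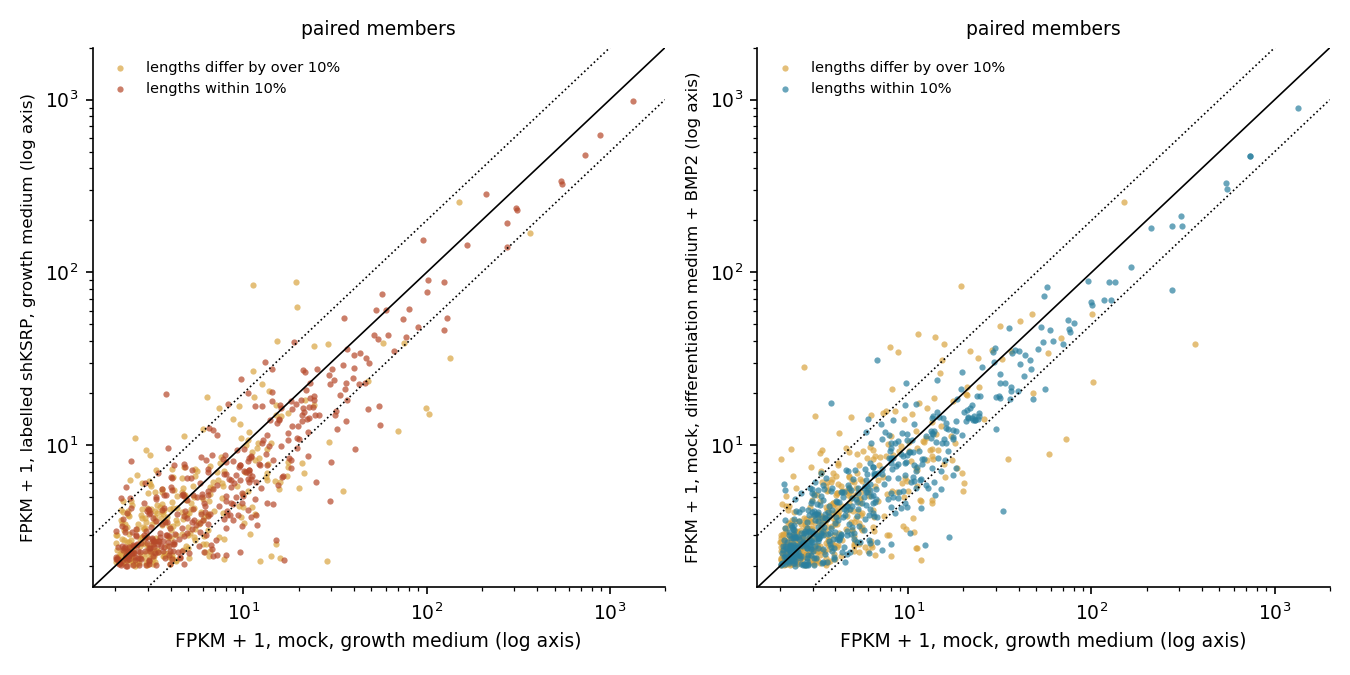
FPKM + 1 of paired single-exon transcripts (log axes) in the library labelled shKSRP (left, vertical axis) and in the BMP2 library (right, vertical axis) against mock. Each point is a pair, coloured by whether its lengths are within 10% of each other, the solid line marks equal levels and the dotted lines the 2-fold limits, and 97 of 674 pairs were lower by the rule of size in the library labelled shKSRP than in mock.

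Pairs with a pseudogene of like length among their neighbours had a median log2 ratio of -0.48 over 100 pairs for the library labelled shKSRP against mock, beside -0.20 over the 472 without one. For BMP2 against mock it was -0.51 over 101 pairs, beside -0.03 over 650. Between the library labelled shKSRP and BMP2, which leaves mock out, the medians were -0.01 over 96 pairs and -0.04 over 499. The mock library enters both comparisons in which the pseudogene-neighboured pairs were lower.

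Some of the largest ratios above mock in the library labelled shKSRP lay far from genes. The transcript 43206 nt before the 5′ end of E030019B06Rik had 18.9 ± 1.54 FPKM from 605 fragments in the library labelled shKSRP, 16.4 ± 1.5 FPKM from 479 in the BMP2 library and 2.80 ± 0.81 FPKM from 48 in mock. The 3 transcripts were of nearly the same length, 616 nt (labelled shKSRP), 624 nt (BMP2) and 626 nt (mock), and the library labelled shKSRP and BMP2 overlap in their intervals. At Ccn6, a gene for a secreted matricellular protein that was listed at 0 throughout, the place 35056 nt before its 5′ end had 83.9 FPKM over 200 nt in the library labelled shKSRP, 42.8 FPKM over 201 nt in BMP2 and 10.2 FPKM over 542 nt in mock. The fragments behind them were 240 (labelled shKSRP), 118 (BMP2) and 249 (mock), so at Ccn6 the ratio of FPKM goes with a difference of length and not with more fragments.

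Among those lower, the place 16372 nt beyond the 3′ end of Rfng, a gene for a Notch-modifying glycosyltransferase, kept its length. It had 1.15 ± 0.20 FPKM from 130 fragments in the library labelled shKSRP, 1.94 ± 0.30 FPKM from 168 in BMP2 and 15.6 ± 0.82 FPKM from 1465 in mock, over 1749 (labelled shKSRP), 1530 (BMP2) and 1598 nt (mock). Lengths did not match 18779 nt before the 5′ end of Cox20, a gene for a mitochondrial assembly factor. There were 4.43 FPKM over 846 nt from 215 fragments in the library labelled shKSRP, 7.30 FPKM over 565 nt from 184 in BMP2 and 34.1 FPKM over 310 nt from 314 in mock, so the fragments differ much less than the FPKM. At Zc3h7a, a zinc finger gene, the transcript lay in an intron in the library labelled shKSRP, with 168 FPKM over 675 nt from 6119 fragments, and in mock, with 366 FPKM over 517 nt from 8349. In BMP2 it was longer and reached an exon, with 37.4 FPKM over 2388 nt from 5306 fragments. Mock was the highest in FPKM and in fragments at all of Rfng, Cox20 and Zc3h7a.

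Since length moved with several of the ratios, pairs with lengths within 10% of each other were counted as well, a choice made after the data were seen. For the library labelled shKSRP against mock this left 380 pairs, 12 higher and 55 lower, with a median log2 ratio of -0.34. For BMP2 against mock it left 473 pairs, 10 higher and 29 lower, with a median of -0.14. For the library labelled shKSRP against BMP2 it left 395 pairs, 11 higher and 20 lower, with a median of -0.04. The lean to lower values in the library labelled shKSRP against mock was thus as large among pairs of like length.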

How the data were processed

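The authors deposited 1 Cufflinks transcript file per library, with mm9 coordinates and, per the file headers and attributes, FPKM with its 95% interval, and a score per transcript that was not used. Tools listed in the submitters' processing notes are Cufflinks 1.3.0, TopHat 1.4.1, Bowtie 0.12.7 and CASAVA 1.8, with mm9 as the build. Roles, settings and the placing of reads with several matches: not given in the sources used here.

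From these files the single-exon transcripts were taken by the rule in the opening, placed against the 28702 RefSeq transcripts (22709 genes), overlapped between libraries and paired, with Python 3.11.15 and pandas 2.3.3. Symbols came from RefSeq for 28023 accessions, GENCODE for 170 and the files for 222, and 287 kept the accession. The FPKM of a gene sums its RefSeq transcripts and, where a locus holds that gene alone, the assembled ones of the locus. At a locus that joins several genes the assembled ones are left out, so a gene can come out too low or at 0. Scd2 came out at 0 in mock, where a 6-exon transcript over it at a RefSeq locus had 57.6 FPKM. The gene levels and shares of expressed genes given above carry this limit. Fragments and depth were computed from FPKM and the width of its interval, which gave whole numbers, within 0.01, for 55.5% (labelled shKSRP), 55.8% (BMP2) and 57.1% (mock) of the transcripts. Shares have 95% Wilson intervals (statsmodels 0.14.6), which with so few libraries cover counting error only. Placing, overlap and pairing were tested on simulated data.

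Members and gene lists were chosen with earlier results of these data known. Named places are those with the highest FPKM per library and over libraries, the largest ratios of each comparison, the longest transcripts, the highest in 3′ flanks, introns and near microRNAs, and the hosts with most intronic transcripts. Other FPKM and length minimums, distance limits, overlaps and pseudocounts were tried. Sequences of the transcripts themselves were not analysed here, since no mm9 genome was used.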

Additional observations from a re-analysis of the deposited data

How the results depend on the processing

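No paired analysis was possible because each group has 1 library and the labels give no shared replicate numbers. Of 84 recomputed values, 49 moved by more than their counting interval and 35 did not. With an FPKM of 2 or more, exonic shares were 18.3% (labelled shKSRP), 26.7% (BMP2) and 28.2% (mock), intronic 28.7% (BMP2) and 26.2% (mock), and intergenic 53.4% (labelled shKSRP), 44.6% (BMP2) and 45.7% (mock). With 500 nt or more they were 26.1%, 32.4% and 30.2% exonic, 19.6%, 19.8% and 22.8% intronic, each in the library labelled shKSRP, BMP2 and mock, and 54.3% intergenic (labelled shKSRP). With RefSeq transcripts above 0 only, they were 11.8% (labelled shKSRP), 15.5% (BMP2) and 15.2% (mock) exonic, 22.4% (labelled shKSRP), 24.8% (BMP2) and 22.9% (mock) intronic, and 65.8% (labelled shKSRP), 59.7% (BMP2) and 61.9% (mock) intergenic. The intergenic share of the library labelled shKSRP was the highest of the 3 at each of these settings.

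The share beyond a 3′ end was 9.91% (labelled shKSRP), 11.7% (BMP2) and 11.96% (mock) within 1 kb, and 35.3% (labelled shKSRP), 41.2% (BMP2) and 43.7% (mock) within 20 kb. At 5 kb it was 25% (BMP2) and 25.2% (mock) with an FPKM of 2 or more, and 29.5% (labelled shKSRP), 33.9% (BMP2) and 39.7% (mock) with 500 nt or more. Recurrence was 58.0% (labelled shKSRP), 50.7% (BMP2) and 42.4% (mock) when 50% of both lengths had to overlap, and 45.8% (mock) with 500 nt or more.

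Of paired transcripts, 18.8% differed at least 2-fold between the library labelled shKSRP and mock, 11.3% between BMP2 and mock and 13.0% between the library labelled shKSRP and BMP2. With a pseudocount of 0.1 these were 26.6% (labelled shKSRP against mock), 16.6% (BMP2 against mock) and 19.1% (labelled shKSRP against BMP2), and with 5 they were 6.53%, 3.89% and 3.91% of the same comparisons. With overlap of 50% of both lengths, 8.92% differed for BMP2 against mock and 10.3% for the library labelled shKSRP against BMP2, and with lengths within 10%, chosen after the data were seen, 8.25% and 7.85%. The cause of these moves was not tested, except that a smaller pseudocount widens the ratios of low levels by construction.

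The main limits are 1 library per group, no strand for nearly all transcripts, separate assembly of each library, and few fragments behind short, low transcripts, so that presence near 1 FPKM is not settled at this depth.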
